A study of Mus musculus with 3 samples.

Results

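The IGF axis is described here through 9 genes: the ligands *Igf1* and *Igf2*, the receptor *Igf1r*, and the binding proteins *Igfbp2*, *Igfbp3*, *Igfbp4*, *Igfbp5*, *Igfbp6* and *Igfbp7*. All 9 were found, each as a single row, among the 32285 genes of the deposited tables. The set was chosen by measured values, namely the large difference of *Igfbp2* UMIs between mutant and wild-type smooth muscle cells (SMCs). The difference of *Igfbp2* between those 2 libraries in SMCs is therefore a description, and nothing is rested on it.

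Cells of the ascending aorta of male C57BL/6J mice at P45 were counted in 3 droplet libraries, with 1 library per group. The WT library pooled 3 wild-type mice. The mgR library pooled 3 *Fbn1*mgR/mgR mice, which are homozygous for a hypomorphic allele of the fibrillin-1 gene and model Marfan syndrome. The mgR-LOS library pooled 4 mice of the same mutant genotype that were given losartan, a blocker of the type I angiotensin II receptor, at 0.6 g/L in their drinking water from P16. WT mice carried neither the allele nor the drug, and whether mgR mice received vehicle is not given in the labels. The mutation is present in every cell of the mutant animals, so no cell type in these libraries is a control within the animal.

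IGF-I and IGF-II are secreted growth factors that signal through a tyrosine kinase receptor encoded by *Igf1r*, which is related to the insulin receptor. In extracellular fluid most of the ligand is held by IGF-binding proteins, which lengthen its half-life and keep it from the receptor or deliver it there, and proteases such as pappalysin-1 free it again. IGFBP-2 carries an RGD sequence that integrins can bind, IGFBP-5 binds extracellular matrix, IGFBP-6 prefers IGF-II, and IGFBP-7 is a related protein of the basement membrane with low affinity for the ligands. In the arterial wall IGF-I is known as a survival and growth signal for SMCs.

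*Igfbp2* (ENSMUSG00000039323) lies on the plus strand of chromosome 1 from 72824503 to 72852474 (GRCm38, GENCODE release 21 for the mouse). *Igfbp5* (ENSMUSG00000026185) lies on the minus strand from 72857932 to 72874884. The neighbors point toward each other, and 5457 bases separate their ends. The 250 bases before the first RefSeq start of *Igfbp2* and those before the start of *Igfbp5* (RefSeq, GRCm38.p6) are shown because these adjacent genes had different patterns over the cell types. Capitals mark GGGCGG on either strand, the core of the GC box bound by Sp family factors.
Igfbp2, chr1:72824230-72824479, plus strand: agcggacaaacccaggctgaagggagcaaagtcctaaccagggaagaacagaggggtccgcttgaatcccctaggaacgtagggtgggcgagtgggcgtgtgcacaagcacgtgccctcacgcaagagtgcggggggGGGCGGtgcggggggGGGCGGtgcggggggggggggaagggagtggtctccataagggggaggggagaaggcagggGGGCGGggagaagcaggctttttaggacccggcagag
Igfbp5, chr1:72874866-72875115, minus strand: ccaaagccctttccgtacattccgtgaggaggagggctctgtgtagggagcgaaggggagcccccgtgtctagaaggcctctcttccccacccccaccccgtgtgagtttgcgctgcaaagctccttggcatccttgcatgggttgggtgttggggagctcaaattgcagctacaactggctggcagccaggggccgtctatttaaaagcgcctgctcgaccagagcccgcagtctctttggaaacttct
The *Igfbp2* stretch held 3 GC boxes, and 67.2% of its bases were G or C. A further RefSeq start of *Igfbp2* had 0 GC boxes in its 250 bases. The *Igfbp5* stretch held none, at 58.8% G or C. Of 32851 stretches of this length in the RefSeq table, 32.7% held GGGCGG. The TATA box (TATAAA) was in 12.4% of them, and the CArG box bound by serum response factor in 1.47%. Neither of these was found in either stretch on either strand, which says only that these letters are not in this window.

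The libraries held 7858, 10657 and 14663 barcodes (WT, mgR, mgR-LOS), and 5361, 8076 and 12721 passed the filter of 600 to 5000 genes and at most 10% mitochondrial UMIs. Median depth was 13636, 12410.5 and 8334 UMIs, so that mgR-LOS was the shallowest. *Fbn1*, the mutated gene, was at 361 CPM (UMIs scaled to a total of 1000000) in WT, 150.1 in mgR and 116.7 in mgR-LOS. From 22 to 46 barcode sequences were shared by each pair of libraries, 11 to 34 of them among passing cells. Each cell was assigned to a class by the share of its UMIs in fixed marker panels. The SMC gate took 3662, 3016 and 7949 cells, with median SMC panel levels of 53.5, 51.9 and 50.7 UMIs per 1000 and fibroblast panel levels of 6.11, 6.53 and 5.01. The fibroblast gate took 1311, 2412 and 3114 cells, with fibroblast panel levels of 38.7, 33.3 and 40.1 and SMC panel levels from 1.10 to 1.46. The class thresholds were set after the cells had been seen, and 31, 130 and 134 SMC-gated cells lay within 25% of a limit. With 1 library per group there is no replicate and no test. The 95% intervals (exact Poisson for levels, exact binomial for shares, exact conditional binomial for ratios) cover counting error only. The spread between mice is not known, and neither is any difference between the runs.

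In SMCs, *Igfbp2* was low in WT, high in mgR and intermediate in mgR-LOS. It stood at 69.5 CPM (67.3 to 71.8) in WT. In mgR it was 1548 CPM (1537 to 1559), and in mgR-LOS 349 CPM (345 to 353). The intervals were far apart. The ratio of mgR over WT, on which the gene was chosen, was 22.3 (21.5 to 23.0). The ratio of mgR-LOS over mgR was 0.225 (0.222 to 0.229), and that of mgR-LOS over WT was 5.02 (4.85 to 5.20). The mgR library enters both of the first ratios, and WT enters the mgR over WT and mgR-LOS over WT ratios, so they are not independent. By size of the ratio, *Igfbp2* was at place 2 of 5474 genes with at least 20 CPM in either library for mgR over WT. It was at place 5520 of 5522 for mgR-LOS over mgR, that is, among the 3 with the lowest ratio, and at place 12 of 5520 for mgR-LOS over WT.

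Against the background of all genes, 3.34% were past 2-fold in either direction between mgR and WT in SMCs, 1.63% between mgR-LOS and mgR, and 2.41% between mgR-LOS and WT. The median ratio over all genes was 0.992, 1.01 and 1.01. Of the 9 members, 4 reached 20 CPM for the first comparison, and *Igfbp2* was the one past 2-fold. For mgR-LOS over mgR, 5 reached it. *Igfbp2* was below the limit and *Igfbp5* above it. For mgR-LOS over WT, *Igfbp2* and *Igfbp5* of 5 were higher. *Igfbp5* reached 20 CPM in mgR-LOS alone, so it entered these counts only through its level there. That level rests in part on SMC-gated cells outside the clusters described below. The 4 members at 20 CPM or more in both libraries had median ratios of 1.64, 0.923 and 1.69, with *Igfbp2* past 2-fold in each comparison, beside 1.61%, 1.04% and 1.00% of all genes under the same limit. *Igfbp2* chose the set by its mgR over WT difference, and it is in these counts and medians. It was the only one of the 4 past 2-fold, so nothing about the set is read from these shares.

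The level in single SMCs showed that the libraries differed both in how many cells carried *Igfbp2* and in how much these carried. In WT, 83.5% of SMC-gated cells had no *Igfbp2* UMI, and the 10% of cells with the most UMIs held 93.4% of all *Igfbp2* UMIs. In mgR, 14.6% had none, and the top 10% held 49.0%. In mgR-LOS, 54.7% had none, and the top 10% held 70.1%. Cells at 1000 CPM or more were 1.42% of WT, 40.0% of mgR and 8.89% of mgR-LOS. The median cell was at 0 in WT and in mgR-LOS and at 652 CPM in mgR. WT thus held a small number of strongly positive cells, the highest at 10364 CPM, while most mgR cells were positive over a wide range (SD 1910 CPM, highest 22124 CPM).

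Because depth differed between libraries, each cell was also thinned to 1000 UMIs. The share of SMC-gated cells with an *Igfbp2* UMI was then 3.72% (3.13% to 4.38%) in WT, 48.0% (46.2% to 49.8%) in mgR and 17.1% (16.2% to 17.9%) in mgR-LOS. In macrophages it was 0%, 6.05% and 0.485%, at medians of 9074, 8262.5 and 6586 UMIs per cell. Before thinning, the SMC shares were 16.5%, 85.4% and 45.3% at medians of 14368, 15180 and 8537 UMIs per cell, and the macrophage shares were 0%, 34.1% and 6.15%. The macrophage share was thus also highest in mgR, and the part of free RNA from SMCs in it was not tested. The order of the libraries was the same at both depths.

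**Figure D1:**
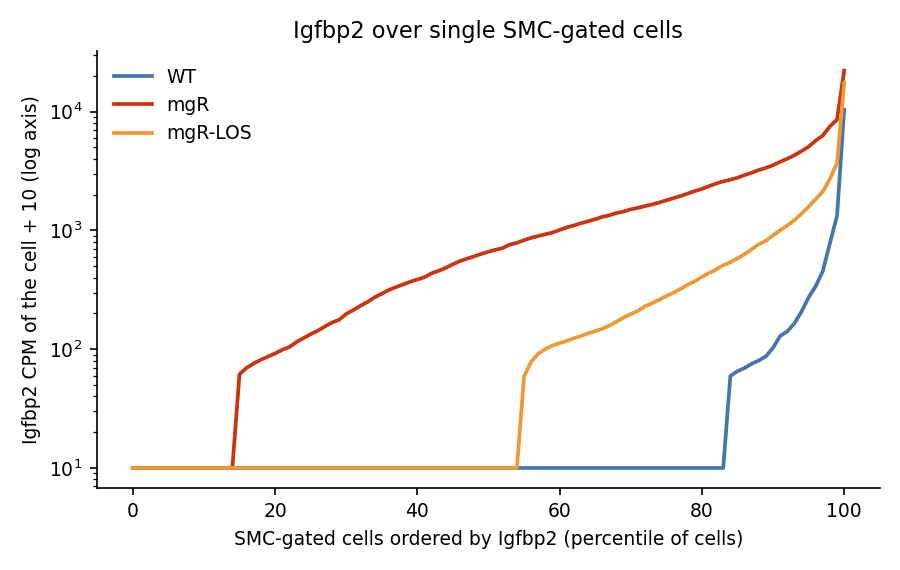
*Igfbp2* in single SMC-gated cells of the WT, mgR and mgR-LOS libraries: the x axis orders the cells of a library by their level as percentiles, and the y axis is the level of the cell in CPM plus 10 on a log scale. The flat part at the left is the share of cells without a UMI (83.5% in WT, 14.6% in mgR, 54.7% in mgR-LOS), and the mgR curve lies above both others at every percentile with UMIs.

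The SMC-gated cells of the libraries fell largely into different clusters (clustering without integration and without the IGF genes or *Fbn1*), so levels were also compared within clusters. In WT, 80.1% of SMC-gated cells were in a cluster led by *Rbp4*, *Mfap5* and *Mfap4*. In mgR, 45.3% were in a cluster led by *Fn1*, *Itga5* and *Crim1*, and 22.8% in one led by *Mgp*, *Vcam1* and *Ace*. In mgR-LOS, 52.2% were in a cluster led by *Npy1r* and *Nsa2*. Among the 10 genes of each SMC cluster with the highest fold against all other cells, none was a panel marker of another gated class. Within the SMC class, however, the fibroblast marker *Lum* was among the genes that led a small cluster with *Fst* and *Cxcl1*, and the pericyte marker *Rgs5* was among the 10 genes of that cluster against all cells.

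*Igfbp2* was higher in mgR than in mgR-LOS, and higher in mgR-LOS than in WT, in each of the 6 SMC clusters with at least 20 cells of every library. In the *Rbp4* cluster it was at 64.6 CPM in 2933 WT cells, 1629 CPM in 47 mgR cells and 496 CPM in 195 mgR-LOS cells. In the *Fn1* and *Itga5* cluster it was at 248 CPM in 68 WT cells, 2000 CPM in 1367 mgR cells and 1060 CPM in 318 mgR-LOS cells, the highest level in each library among the clusters with at least 20 of its cells. A cluster led by *Tnnt2* (cardiac troponin T) and *Des* (desmin) was at 27.7, 467 and 161 CPM. A cluster led by *Fst*, *Cxcl1* and *Thbs1* was at 62.1, 285 and 151 CPM. Ratios of mgR over WT within clusters ran from 4.58 (2.79 to 8.08) in the *Fst* cluster to 27.4 (17.4 to 46.0) in one led by *Atp5k* and *Sncg*. Both ends rest on few WT counts, 16 UMIs in 21 cells and 19 UMIs in 123 cells. The *Atp5k* cluster was shallow, with a median of 4702.5 UMIs.

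The difference of the losartan library from mgR was smaller within clusters than over all SMCs. Within the 8 clusters with at least 20 cells of both mutant libraries, the ratio of mgR-LOS over mgR lay between 0.250 (0.225 to 0.278) and 0.564 (0.540 to 0.588). With the clusters of both libraries weighted by their UMI shares in mgR it was 0.523, against 0.225 over all SMCs. The weighted levels were 815 CPM in mgR-LOS and 1557 CPM in mgR. For mgR over WT the same weighting, by the WT shares, gave 22.9, where the *Rbp4* cluster, which carries most of the weight, had 47 mgR cells.

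A panel of genes that mark modulated SMCs (*Vcam1*, *Spp1*, *Fn1*, *Timp1*, *Mgp*, *Tnfrsf11b* and *Col8a1*) gave another view. Its median over SMC-gated cells was 4.62 UMIs per 1000 in WT, 13.1 in mgR and 6.79 in mgR-LOS. In mgR, *Igfbp2* was high over the whole range of the panel, from 1259 CPM in the 570 cells under 5 per 1000 to between 1466 and 1785 CPM in the 4 higher ranges. In mgR-LOS it was at 313 CPM in cells under 5, 277 CPM from 5 to 10, and 693 CPM in the 281 cells at 40 or more. In WT it was at 86.6 CPM under 5 and fell to 37.8 and 38.7 CPM in the next 2 ranges. It was at 386 CPM (333 to 445) in the 34 WT cells at 40 or more, from 192 UMIs. The WT SMC with the most *Igfbp2* UMIs held 174, and its range on the panel was not looked up, so this level may rest on few cells. At each range of the panel, mgR was above mgR-LOS and mgR-LOS above WT.

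**Figure D2:**
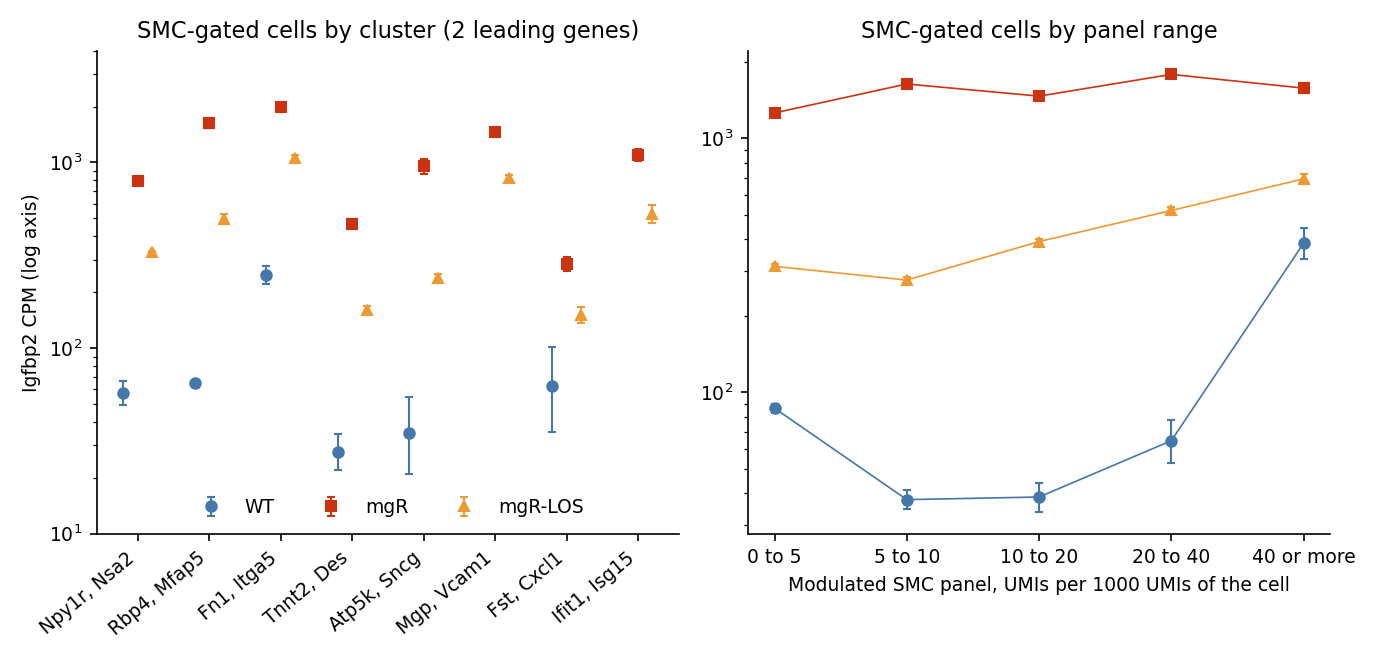
*Igfbp2* level in CPM (log axis, bars 95% Poisson intervals) in SMC-gated cells, split at the left by cluster (named by 2 leading genes) and at the right by the UMIs of the modulated SMC panel per 1000 UMIs of the cell. In every subset plotted for these libraries the mgR point is highest, and WT, where it has at least 20 cells, is lowest. WT is at 386 CPM, from 192 UMIs, in its 34 cells at 40 or more, which may rest on few cells.

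Outside SMCs, *Igfbp2* was low, and its level moved with that of the SMCs of the same library. In fibroblasts it was at 2.24 CPM in WT, 55.5 CPM in mgR and 15.2 CPM in mgR-LOS. In macrophages and monocytes there was no UMI among 942164 in WT, which allows up to 3.18 CPM (3 UMIs), against 50.3 CPM in mgR and 8.86 CPM in mgR-LOS. In endothelial cells (ECs) it was at 3.68, 59.4 and 15.9 CPM. The highest level among the other gated classes was 152 CPM in 51 neutrophils of mgR, from 22 UMIs. These levels are small shares of the SMC level of the same library. In fibroblasts they came to 3.23%, 3.59% and 4.36% of it. For *Myh11*, the smooth muscle myosin heavy chain, the fibroblast level was 1.30%, 1.62% and 2.74% of the SMC level, for the integrin gene *Itga8* 4.94%, 7.68% and 7.12%, and for *Mylk4* 1.81%, 2.69% and 3.01%. The part of free RNA from SMCs in these values was not tested. Of all *Igfbp2* UMIs in passing cells, 97.9%, 90.5% and 95.3% were in SMC-gated cells.

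**Figure D3:**
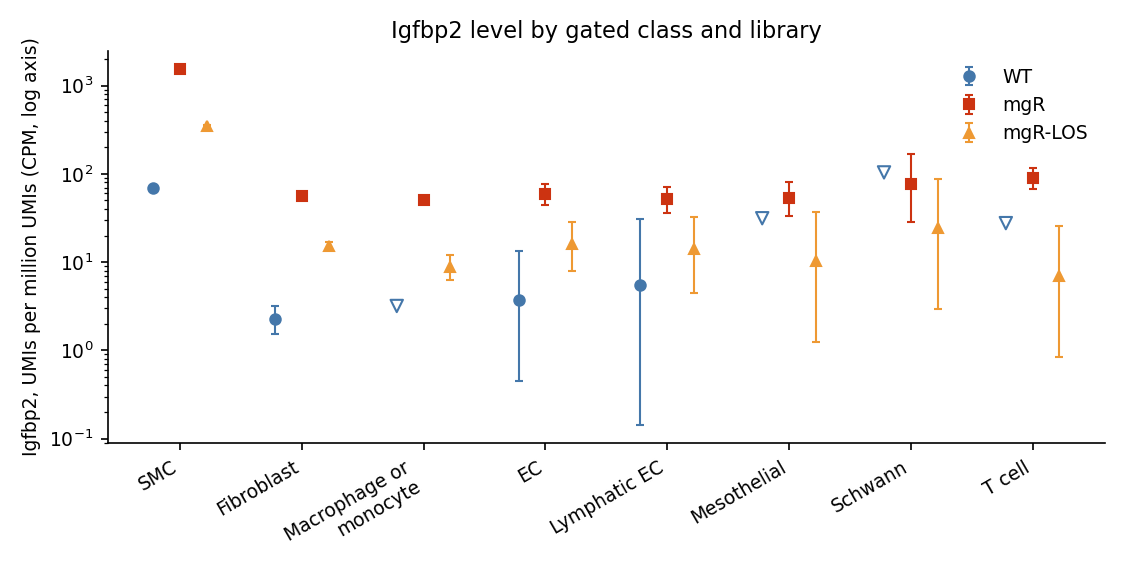
*Igfbp2* level in CPM (log axis) by gated class in the WT, mgR and mgR-LOS libraries, with 95% Poisson intervals, and open triangles at the level of 3 UMIs where none was counted. SMCs have the highest level of the counted points in each library (69.5, 1548 and 349 CPM), and in the other classes plotted mgR lies between 50.3 and 89.1 CPM.

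The ligand *Igf1* came mainly from fibroblasts and, at a lower level, from macrophages. In fibroblasts it was at 822 CPM (808 to 837) in WT, 412 CPM (405 to 419) in mgR and, in mgR-LOS, 445 CPM (437 to 453). WT was highest, and the mutant libraries were close to each other, with a ratio of 0.501 (0.489 to 0.514) for mgR over WT, 1.08 for mgR-LOS over mgR and 0.541 for mgR-LOS over WT. In SMCs *Igf1* was at 8.95, 9.81 and 11.4 CPM, and the direction of these small differences changed with the processing. Fibroblasts held 91.4%, 79.0% and 78.5% of all *Igf1* UMIs, and macrophages 1.37%, 11.2% and 7.22%.

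Within fibroblasts the lower *Igf1* of mgR was uneven over clusters. In a cluster led by *Rbp4*, *Nupr1* and *Dio2*, WT stood at 1642 CPM (412 cells), mgR at 440 CPM (117 cells) and mgR-LOS at 407 CPM (399 cells), a ratio of 0.268 (0.232 to 0.307) for mgR over WT. In a cluster led by *Sbsn*, *Pla1a* and *Dpp4*, the levels were 199, 218 and 202 CPM, with overlapping intervals. In the other 4 clusters the ratio of mgR over WT ran from 0.493 (0.444 to 0.547) to 0.929 (0.879 to 0.982). With the clusters weighted as in WT, the ratio over all fibroblasts was 0.487, close to the 0.501 without weights. The *Rbp4* and *Nupr1* fibroblasts were shallow, with a median of 4106 UMIs over the 928 cells of all libraries together. Depth was not compared between libraries within this cluster.

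Macrophages and monocytes had *Igf1* at 192 CPM (165 to 222) in WT, 179 CPM (171 to 188) in mgR and, in mgR-LOS, 236 CPM (222 to 250). It differed more between the macrophage types than between the libraries. In cells with at least 2 UMIs per 1000 from a panel of resident-type macrophage genes (*Folr2*, *F13a1*, *Mrc1* and *Lyve1*), *Igf1* was at 315, 271 and 331 CPM. In the remaining cells it was at 63.0, 109 and 132 CPM. *Igfbp4* showed the same split, at 371, 264 and 338 CPM against 47.8, 47.4 and 55.9 CPM. Cells over the panel limit were 51 of 98 in WT, 475 of 1140 in mgR and 318 of 618 in mgR-LOS.

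The ligand *Igf2*, a fetal growth factor from an imprinted locus, was near the detection limit in most classes and was highest in ECs. There it was at 143 CPM (113 to 179) in WT, 47.7 CPM (34.8 to 63.8) in mgR and, in mgR-LOS, 135 CPM (109 to 165). The mgR level was lowest, with a ratio of 0.332 (0.225 to 0.486) to WT. A single cell, however, held 43.6% of these UMIs in WT and 50.5% in mgR-LOS, and cells with any *Igf2* UMI were 19.7%, 12.9% and 13.3% of 71, 124 and 98 ECs, so the difference turned on few cells. *H19*, the noncoding neighbor of *Igf2* on the same locus and a member of the list of other pathway genes, was at 127, 7.42 and 248 CPM in ECs, with 69.6%, 71.4% and 26.9% of the UMIs in 1 cell.

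Among the 4 classes with at least 50 cells in every library, the receptor gene *Igf1r* was highest in SMCs, where it was at 128 CPM (125 to 131) in WT, 171 CPM (167 to 175) in mgR and, in mgR-LOS, 181 CPM (178 to 185). WT was lowest, and the ratio was 1.33 (1.29 to 1.38) for mgR over WT and 1.06 (1.03 to 1.09) for mgR-LOS over mgR. In fibroblasts the levels were 67.6, 96.5 and 97.3 CPM, a ratio of 1.43 (1.33 to 1.53) for mgR over WT. ECs were at 93.8, 84.8 and 110.2 CPM with overlapping intervals. Macrophages were at 14.9, 20.5 and 28.1 CPM, the lowest of these classes.

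**Figure D4:**
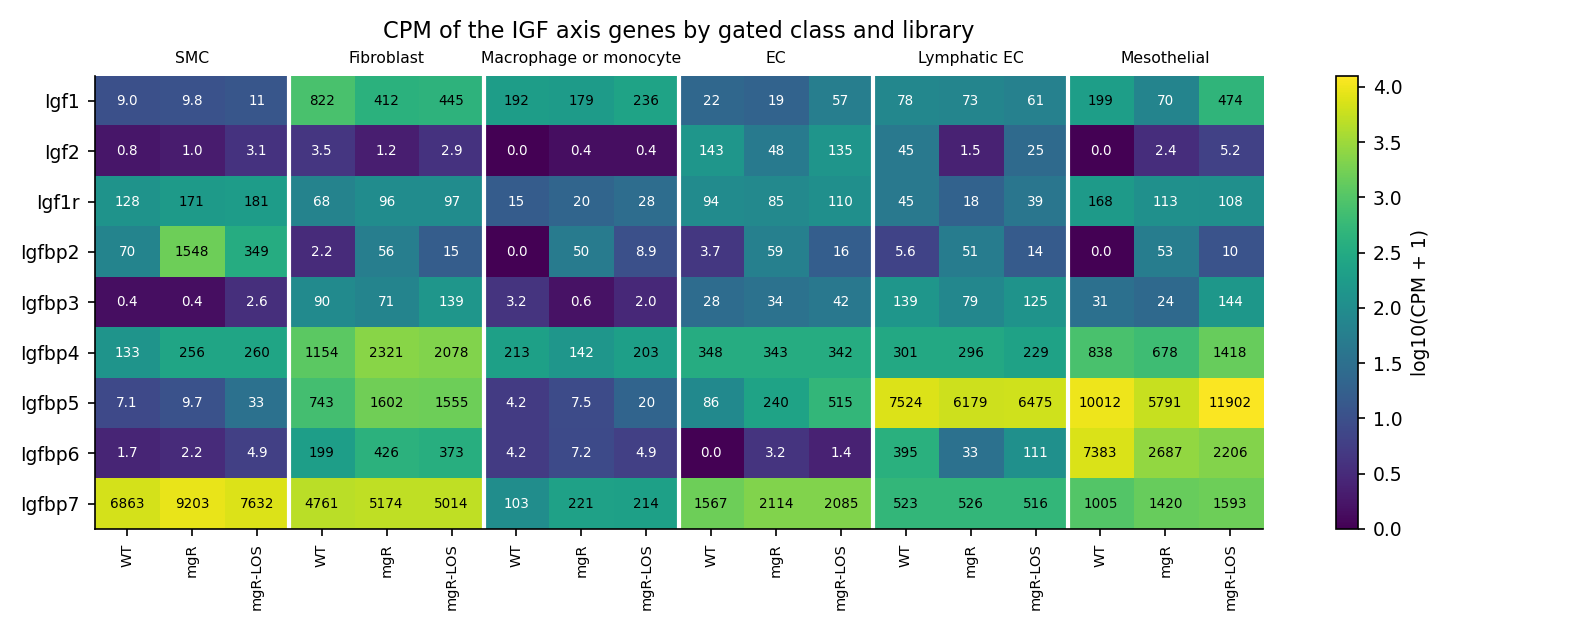
Level of the 9 IGF axis genes (rows) in 6 gated classes, each in the WT, mgR and mgR-LOS libraries (columns), as CPM in the cell and log10(CPM + 1) in color. *Igfbp2* is high in SMCs of mgR (1548 CPM), *Igfbp7* in SMCs and fibroblasts of every library (4761 to 9203 CPM), and *Igfbp5* in lymphatic ECs and mesothelial cells (5791 to 11902 CPM). Lymphatic EC and mesothelial columns rest on 10 to 74 cells.

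Among the other binding proteins in SMCs, *Igfbp4* was higher in both mutant libraries. It was at 132.6 CPM (129 to 136) in WT, 256 CPM (251 to 261) in mgR and, in mgR-LOS, 260 CPM (257 to 264). The mutant libraries overlapped, with a ratio of 1.02 (0.993 to 1.04) between them, and mgR over WT was 1.93 (1.87 to 1.99). With clusters weighted as in WT, mgR over WT was 1.24. Most of that weight fell on the *Rbp4* cluster, with 47 mgR cells and a ratio of 1.16 (0.933 to 1.43). The 6 clusters used held 72.2% of the UMIs of mgR SMCs. *Igfbp7* was at 6863 CPM in WT, 9203 CPM in mgR and 7632 CPM in mgR-LOS. It was detected in every library in nearly all SMCs, 99.5% to 99.8% of them after thinning. Its ratio of mgR over WT was 1.341 (1.335 to 1.347).

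*Igfbp5* in SMCs differed in the losartan library. It was at 7.06 CPM (6.36 to 7.82) in WT, 9.72 CPM (8.84 to 10.7) in mgR and, in mgR-LOS, 32.8 CPM (31.4 to 34.1). The ratio of mgR-LOS over mgR was 3.37 (3.04 to 3.74), but it was 1.495 as a mean of per-cell CPM and 2.21 with a stricter gate. A single cell held 8.80% of the UMIs in mgR-LOS. With clusters weighted as in the denominator library, the ratio of mgR-LOS over mgR was 1.74, and that of mgR-LOS over WT was 1.33 against 4.64 without weights. The weighting left out small clusters. For mgR-LOS over mgR, the 8 clusters used held 98.2% of the UMIs of mgR-LOS SMCs. Of the 2340 *Igfbp5* UMIs there, however, they held 528, 365, 280, 98, 30, 27, 14 and 12. Their *Igfbp5* level in mgR-LOS was 131 CPM in the *Fst* cluster and at most 21.9 CPM in the others. The 32.8 CPM of mgR-LOS SMCs thus rests in part on the cells left out. The weighted ratios differ from the unweighted ones partly through these cells, and unweighted ratios without them were not computed. The SMC level was 0.950%, 0.607% and 2.11% of the fibroblast level, and for the fibroblast gene *Dpt* that share was 0.545%, 0.620% and 1.46%. The part of fibroblast RNA in the *Igfbp5* of SMC-gated cells was not tested. *Igfbp3* and *Igfbp6* were under 5 CPM in SMCs of every library.

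In fibroblasts, *Igfbp4*, *Igfbp5* and *Igfbp6* were each about as high in mgR-LOS as in mgR, and lower in WT. *Igfbp4* was at 1154 CPM in WT, 2321 CPM in mgR and 2078 CPM in mgR-LOS. *Igfbp5* was at 743, 1602 and 1555 CPM, and *Igfbp6* at 199, 426 and 373 CPM. The ratios of mgR over WT were 2.01 (1.98 to 2.05), 2.16 (2.112 to 2.201) and 2.14 (2.06 to 2.23). Unlike *Igfbp2* in SMCs, the ratios of mgR-LOS over mgR were near 1, at 0.896, 0.970 and 0.876.

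With *Igfbp2*, which stood low in these cells, 4 of the 8 members that reached 20 CPM in either library in fibroblasts were past 2-fold higher in mgR than in WT, beside 4.71% of all 6140 genes in either direction. Between mgR-LOS and mgR it was *Igfbp2* alone of 8, beside 1.63% of all genes. Between mgR-LOS and WT it was *Igfbp5* alone of 7, beside 3.39%. *Igfbp4*, *Igfbp5* and *Igfbp6* lay close to the 2-fold limit: *Igfbp4* was 1.97 with at least 200 genes, *Igfbp6* was 1.97 with the stricter gate, and *Igfbp5* of mgR-LOS over WT was 2.09, or 1.73 with that gate and 1.29 with clusters weighted. The ratio of *Igf1* for mgR over WT, 0.501 (0.489 to 0.514), lay just short of the lower limit of 0.5 and was not counted. *Igfbp2* reached 20 CPM in mgR alone, so it entered these counts only through its level there. That level, 55.5 CPM, was near those of macrophages (50.3 CPM) and ECs (59.4 CPM) of mgR. *Igfbp2* also chose the set by its mgR over WT difference in SMCs, so nothing about the set is read from counts that hold it. Of the 7 members at 20 CPM or more in both libraries, 3 were past 2-fold in the first comparison, 0 in the second and 1 in the third, beside 2.48%, 0.772% and 1.84% of all genes under the same limit. Their median ratios were 1.43, 0.970 and 1.55, where all genes had 1.00, 0.997 and 1.01.

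The fibroblast differences were also read within clusters. *Igfbp4* was higher in mgR than in WT in all 6 clusters, by ratios from 1.07 (1.01 to 1.14) to 2.02 (1.95 to 2.08), and the weighted ratio was 1.60. *Igfbp5* was at 7661, 9215 and 8254 CPM in the *Sbsn* and *Dpp4* cluster and at most 1269 CPM in the others, and that cluster held 4.195% of WT, 12.02% of mgR and 9.25% of mgR-LOS fibroblasts. Its ratio of mgR over WT was 1.20 (1.17 to 1.24) in that cluster. It was 1.99 (1.71 to 2.31), 1.71 (1.30 to 2.26) and 1.503 (1.30 to 1.75) in the clusters led by *Rbp4* and *Nupr1*, by *Chad* and *Cytl1*, and by *Hsd11b1* and *Fhl2*. In a cluster led by *Trf* and *H2-Ab1* it was 1.00 (0.908 to 1.11), and in one led by *C3* and *Adm* it was 0.752 (0.721 to 0.785). Weighted as in WT it was 1.12 over all fibroblasts, against 2.16 without weights. With the stricter gate the unweighted ratio was 1.40.

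*Igfbp6* moved in opposite directions between fibroblast clusters. In the *Rbp4* and *Nupr1* cluster it was at 74.6 CPM in WT, 518 CPM in mgR and 327 CPM in mgR-LOS, a ratio of 6.95 (5.82 to 8.30) for mgR over WT. In a cluster led by *Hsd11b1* and *Gdf10* the ratio was 0.513 (0.457 to 0.577). The weighted ratio was 1.75. *Igfbp3* in fibroblasts was at 89.8, 70.8 and 139 CPM. The losartan library was highest, at a ratio to mgR of 1.97 (1.87 to 2.08), and a single WT cell held 26.7% of the WT UMIs. The order of *Igfbp3* differed between clusters. In the *Hsd11b1* and *Gdf10* cluster it was at 300, 94.2 and 218 CPM, WT being highest. In the *C3* and *Adm* cluster it was at 59.3, 69.7 and 149 CPM, mgR-LOS being highest. With clusters weighted as in WT, mgR-LOS over WT was 1.07, against 1.55 without weights.

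**Figure D5:**
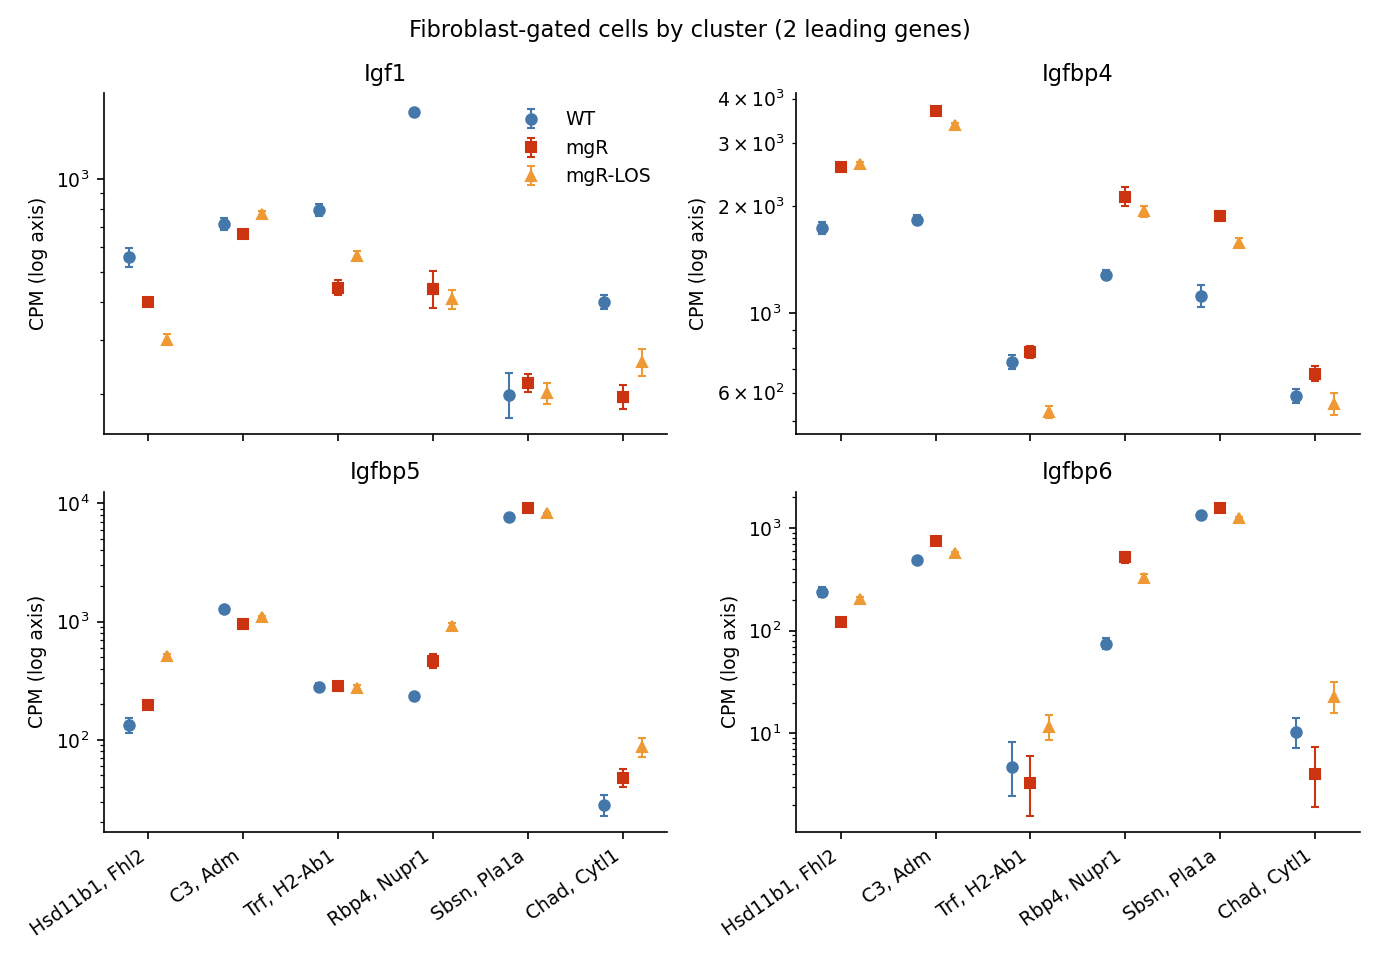
Level of *Igf1*, *Igfbp4*, *Igfbp5* and *Igfbp6* in CPM (log axes, bars 95% Poisson intervals) in 6 clusters of fibroblast-gated cells named by 2 leading genes, for the WT, mgR and mgR-LOS libraries. *Igf1* of WT stands apart in the *Rbp4*, *Nupr1* cluster (1642 CPM against 440 and 407), and *Igfbp5* is highest in the *Sbsn*, *Pla1a* cluster in all 3 libraries.

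In small classes the binding proteins were at other levels. *Igfbp5* was at 7524 CPM (7128 to 7936) in 23 lymphatic ECs of WT, 6179 CPM (5991 to 6371) in 74 of mgR and 6475 CPM (6214 to 6744) in 48 of mgR-LOS. Other ECs were at 86.4, 240 and 515 CPM. Mesothelial cells, which line the outer surface, had *Igfbp5* at 10012, 5791 and 11902 CPM and *Igfbp6* at 7383, 2687 and 2206 CPM in 10, 35 and 25 cells. The doublet score called 3, 17 and 8 of these mesothelial cells. *Igfbp4* in ECs was at 348, 343 and 342 CPM, with ratios between libraries from 0.984 to 0.996. *Igfbp7* in ECs was at 1567, 2114 and 2085 CPM. It was highest in the capillary-type cluster, at 5029 CPM in 34 mgR and 4003 CPM in 20 mgR-LOS cells. The main EC cluster was at 965 and 1590 CPM. *Rgs5* is the pericyte marker named above, and the part of pericyte RNA in the capillary-type cluster was not tested.

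A list of 25 other genes of the pathway was read beside the members. In SMCs, 12 of them reached 20 CPM in each comparison, and 0 of 12 were past 2-fold in any of the 3, with median ratios of 1.03, 1.03 and 0.922. With 3.34%, 1.63% and 2.41% of all genes past that limit, a count of 0 of 12 is near the background. The list member with the highest ratio of mgR over WT was *Igf2r*, the receptor that clears IGF-II. It was at 37.4, 72.7 and 41.9 CPM, with ratios of 1.94 (1.84 to 2.06) for mgR over WT and 0.576 (0.548 to 0.605) for mgR-LOS over mgR. *Grb14*, an adapter that inhibits the insulin receptor, had the lowest ratio of mgR over WT, 0.540 (0.506 to 0.577), at 55.1, 29.8 and 43.3 CPM. The protease gene *Htra1* was at 433, 522 and 310 CPM, *Irs2* at 101.3, 111 and 80.2 CPM, and *Pik3r1* at 47.5, 81.3 and 73.4 CPM.

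In fibroblasts, 15 of the 25 reached 20 CPM for mgR over WT. *Pappa*, which encodes the protease that cleaves IGFBP-4, was higher, at 11.4 CPM in WT, 40.9 CPM in mgR and 28.2 CPM in mgR-LOS, a ratio of 3.61 (3.07 to 4.27). *Stc2*, which encodes an inhibitor of that protease, was lower, at 34.8, 15.1 and 22.5 CPM, a ratio of 0.433 (0.381 to 0.493). No other of the 15 was past 2-fold, beside 4.71% of all genes. Each of these genes was under 20 CPM in one library of that comparison, and of the 11 list genes at 20 CPM or more in both, 0 were past 2-fold. For mgR-LOS over WT, *Pappa* was the one past 2-fold, at 2.48 (2.09 to 2.95), and for mgR-LOS over mgR none of 14 was. *Htra1* was at 383, 203 and 217 CPM in fibroblasts, WT being highest. *Igfbp1* had no UMI in SMCs or fibroblasts of any library.

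The genes most like each member were found by Pearson's r of log2(CPM + 1) over 17 populations (a class in 1 library with at least 50 cells) among 10094 genes. The populations share libraries and depth, and r is a description. For *Igfbp2* they were *Ccn3* (0.782), *Cdh6* (0.777), 2210407C18Rik (0.766), *Mylk4* (0.759) and *P2rx1* (0.753). They were higher in SMCs than in fibroblasts of mgR, and their SMC levels differed less between libraries than that of *Igfbp2*. *Ccn3*, which encodes a matricellular protein, was at 1192, 2028 and 1725 CPM in SMCs, and *P2rx1*, an ATP-gated channel gene, at 9.18, 45.1 and 22.8 CPM. *Igfbp7* was most like *Sod3* (0.987), *Bgn* (0.986) and *Fhl1* (0.980), *Igfbp3* like *Fndc1* (0.980), *Igfbp5* like *Tfpi2* (0.963) and *Igfbp6* like the complement gene *C3* (0.947). *Igf1* was most like *Fuca1* (0.961), *Igf2* like *Tmem255b* (0.957), *Igfbp4* like *Mia3* (0.948) and *Igf1r* like *Clip1* (0.928).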

How the data were processed

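Libraries were made with droplet 3' chemistry from pooled aortas after enzymatic digestion. The authors deposited counts of UMIs per gene and barcode, without normalization. Their processing notes name Cell Ranger 6.0.1 and mm10 for every library, while the file headers name cellranger 5.0.1 for WT and mgR and 6.0.1 for mgR-LOS; whether this affected the counts was not tested. The study's methods link to a Cell Ranger mm10 reference build, and the annotation release behind it was not looked up here.

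The filter followed the study's methods: 600 to 5000 detected genes, and no more than 10% of UMIs from mitochondrial genes. Cells were gated by marker panels, as UMIs per 1000 of the cell. SMC and fibroblast gates needed at least 10, 2-fold over the other. The minimum was 5 for macrophages or monocytes and for neutrophils, 1.5 for ECs (lymphatic with 1 from their own panel) and for B cells, 1 for T and Schwann cells, and 0.5 for mesothelial cells. The classes set aside cells with another class's panel, except that mesothelial cells were kept at any level of the SMC and fibroblast panels. Called doublets, from an artificial-neighbor score with 25% artificial doublets and a rate of 0.8% per 1000 barcodes, were kept. UMIs were summed per class and library and scaled to CPM. Past 2-fold means a ratio of at least 2 or at most 0.5, with any count under 3 UMIs set to 3. Clusters were made from 2000 variable genes, 30 components and 15 neighbors with leidenalg 0.10.2. They are named by their leading genes at 200 CPM or more, with 10 CPM added, against the rest of the class. Python 3.11.15, numpy 2.4.6, scipy 1.17.1, pandas 2.3.3, scikit-learn 1.9.0 and matplotlib 3.10.9 were used. The functions for ratios and calls were tested on simulated data.

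The members, lists and tests were chosen with earlier results of these data known. Genes are named by a rule: the members, pathway genes past 2-fold and up to 6 of the most abundant others, the markers, *Fbn1*, and the 5 genes most like *Igfbp2* and 3 most like each other member. *Igf2r* and *Grb14* (ends of the list), *Igfbp1*, *Myh11*, *Itga8* and genes that lead clusters were chosen after their values were seen.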

Additional observations from a re-analysis of the deposited data

Results flagged for a closer look

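In barcodes that the main comparisons by class left out, *Igfbp2* was also counted. Both mutant libraries stood above the WT library in the same kind of barcode. In cells that passed the filter and met no gate it was at 545 CPM (530 to 560) in 928 mgR cells and 102 CPM (95.4 to 109.9) in 766 mgR-LOS cells, against 28.9 CPM (20.9 to 38.9) in 146 WT cells. Their median SMC panel levels were 11.8, 16.4 and 12.03 UMIs per 1000, and their median fibroblast panel levels 11.9, 12.3 and 12.97. The doublet score called 237, 365 and 54 of these cells. In the SMC gate it called 254 of 3016 mgR cells, 741 of 7949 mgR-LOS cells and 228 of 3662 WT cells. In barcodes that failed the filter mgR had 1004 CPM (992 to 1017), and mgR-LOS had 230.2 CPM (221 to 239.7), against 51.3 CPM (47.5 to 55.2) in WT. Their median SMC panel levels were 19.2, 20.6 and 19.8 UMIs per 1000. The part of SMC RNA in these values was not tested, and neither was the part of doublets.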

How the results depend on the processing

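No paired analysis was possible because each group is a single library. *Igfbp2* in SMCs kept the order mgR, mgR-LOS, WT under every alternative run. With at most 5% mitochondrial UMIs, which left 596 WT, 909 mgR and 3182 mgR-LOS SMCs, its ratio was 18.7 for mgR over WT, 0.205 for mgR-LOS over mgR and 3.85 for mgR-LOS over WT. The ratio of mgR-LOS over mgR was 0.221 with at least 200 genes and no upper limit, 0.217 without called doublets, 0.230 with the stricter gate, 0.229 on CPM without mitochondrial, ribosomal protein and globin genes, and 0.230 as a mean of per-cell CPM. With clusters weighted as in the denominator library, an alternative chosen after seeing the data, it was 0.523, and mgR-LOS over WT was 7.21. With at least 5 CPM in place of 20, 417, 202 and 332 genes were past 2-fold in SMCs, against 183, 90 and 133. The 51 other member ratios in SMCs and fibroblasts were taken at any level, *Igfbp3* in SMCs for example at 0.424, 0.435 and 2.62 CPM. Of these, 39 kept their direction, whatever their size, in all 8 alternatives, and 16 of the 17 past 2-fold did. The exception was *Igfbp6* in SMCs, 2.24 for mgR-LOS over mgR and 0.961 as a mean of per-cell CPM; the cause was not tested. Thinned to 2000 UMIs, 6.14%, 61.9% and 24.9% of WT, mgR and mgR-LOS SMCs carried *Igfbp2*. With 10 CPM added in place of 1, 3 of the 5 genes most like *Igfbp2* stayed. Members under 20 CPM and classes of under 100 cells are limited by depth.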
